A study of Mus musculus with 6 samples.

Results

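The histone cluster genes are the small genes of the mouse Hist1, Hist2, Hist3 and Hist4 loci that encode the linker histone H1 and the core histones H2A, H2B, H3 and H4. They were measured here by RNA sequencing of the cochlea, the coiled inner ear organ of hearing, in mice at postnatal day 7. The study set libraries labelled Neu4 knockout against libraries labelled wild type. The product of Neu4 is a sialidase, which trims sialic acids off glycans. Each group had 3 libraries, numbered 2, 4 and 5 in the knockout and 3, 4 and 5 in the wild type. The labels give the genotype and the tissue, and no strain, allele, sex or statement that each library came from its own animal. P-values therefore measure the spread between these libraries, which may be technical.

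The members were chosen by symbol. Of 30462 genes measured, 6 protein-coding genes carried a symbol that begins with Hist and a cluster number (Hist1h2bp, Hist1h2bq, Hist1h2br, Hist1h4m, Hist1h4n and Hist1h2ao). Another 48 protein-coding genes carried newer symbols, such as H1f2 for Hist1h1c, and matched the same pattern through the symbol that GENCODE M21 gives their gene identifier. This extension was chosen after the values were seen, because the 6 genes alone would have left out the expressed members, and it made 54 members in all. GENCODE M21 holds 67 such protein-coding genes, and the other 13 were not among the 30462 genes with values. By locus there were 47 members in Hist1 on chromosome 13, 4 in Hist2 on chromosome 3, 2 in Hist3 on chromosome 11 and 1 in Hist4 on chromosome 6. By type there were 6 H1, 10 H2A, 16 H2B, 10 H3 and 12 H4 genes.

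Most histone protein is made while a cell copies its DNA, and the cluster genes are the source of that supply. Their mRNAs are unusual in that they end just after a short stem-loop, which the stem-loop binding protein recognises, and carry no poly(A) tail. Some cluster genes can also be read through the stem-loop to a downstream polyadenylation signal, which gives an ordinary polyadenylated mRNA in cells that have stopped dividing. Most of the genes lack introns, and many are near-identical copies of each other. Hair cells and supporting cells of the cochlea have stopped dividing by this age, while other cells of the ear still divide. Whether poly(A) RNA was selected or ribosomal RNA removed before library preparation was not given in the sources used here, so the level of a cluster gene is the level of the forms that this preparation kept.

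The stem-loop that defines the class was looked for in the annotated transcripts of GENCODE M21 (mouse genome build GRCm38). The pattern searched on the transcript strand was GGNNCTTNTNAGNGCC, where N is any base. It was found in 39 of the 54 members, against 60 of 18053 protein-coding genes (0.332%), members included. The stretches below show it in the most abundant H1, H2B, H2A and H4 members with a match and in 4 of the 6 genes with a Hist symbol, with the 16 matching bases in capitals. They are written as DNA, 5′ to 3′.
H1f2: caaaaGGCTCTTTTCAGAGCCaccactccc
H2bu2: ccaaaGGCTCTTTTCAGAGCCaccttccaa
H2aw: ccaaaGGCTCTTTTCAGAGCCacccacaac
H4c9: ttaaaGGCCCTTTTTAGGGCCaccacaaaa
Hist1h2bp: acaaaGGCTCTTTTCAGAGCCacccacatt
Hist1h2ao: aaaaaGGCTCTTTTCAGAGCCatccacagt
Hist1h4m: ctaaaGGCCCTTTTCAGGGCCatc
Hist1h4n: ctaaaGGCCCTTTTCAGGGCCatccaatta
The letters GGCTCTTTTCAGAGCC were shared by 22 members, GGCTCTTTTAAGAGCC by 6 and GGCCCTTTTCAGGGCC by 6. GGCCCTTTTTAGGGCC, the H4c9 form, was in 2 members, and 3 other forms were in 1 member each.

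The libraries held 15170973 to 17192293 fragments in all, and 13916 to 14154 genes per library reached an FPKM (fragments per kilobase of transcript, scaled to the library's total) of 1. Neu4, the targeted gene, was at 0.0797 ± 0.0255 FPKM in the group labelled knockout and at 0.0779 ± 0.0242 in the wild type (SD, n = 3 each). This rests on 4, 8 and 6 fragments in each group (exact two-sided permutation test, p = 0.8, smallest possible 0.1), so its level does not tell the groups apart and does not check the labels. The labels do not give the allele, and every direction below is between groups as labelled. Read from Xist and Ddx3y, the knockout group held 2 female libraries and 1 male, and the wild type 1 female and 2 male. Across the 14072 genes that reached an FPKM of 1 in at least 3 libraries, limma called 47 genes at an adjusted p under 0.05 (0.334%), 29 lower and 18 higher in the knockout. With median-ratio scaling between libraries the split was 37 lower and 11 higher.

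A single gene carried most of the histone cluster signal. H1f2, which encodes the somatic linker histone H1.2 that binds DNA between nucleosomes, had a mean of 77.7 FPKM and took 59.7% to 67.9% of all member fragments in each library. H2bc4, a core H2B gene, followed at 22.0 FPKM. H2bu2 (H2B, 7.49 FPKM), H2bc21 (H2B, 5.66), H4c9 (H4, 4.42), H2bc8 (H2B, 3.35), H2aw (H2A, 1.90), H3c15 (H3, 1.41) and H4c8 (H4, 1.22) were the other members that passed the filter on low values. These 9 members hold 57 to 11939 fragments each over the 6 libraries. The other 45 had means of 0.00438 to 0.644 FPKM with a median of 0.132, and together they made up 3.98% to 5.16% of member fragments. Of these 45, 37 rest on at most 20 fragments over all 6 libraries, 20 on at most 5, and 37 were at 0 in at least 1 library.

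**Figure D1:**
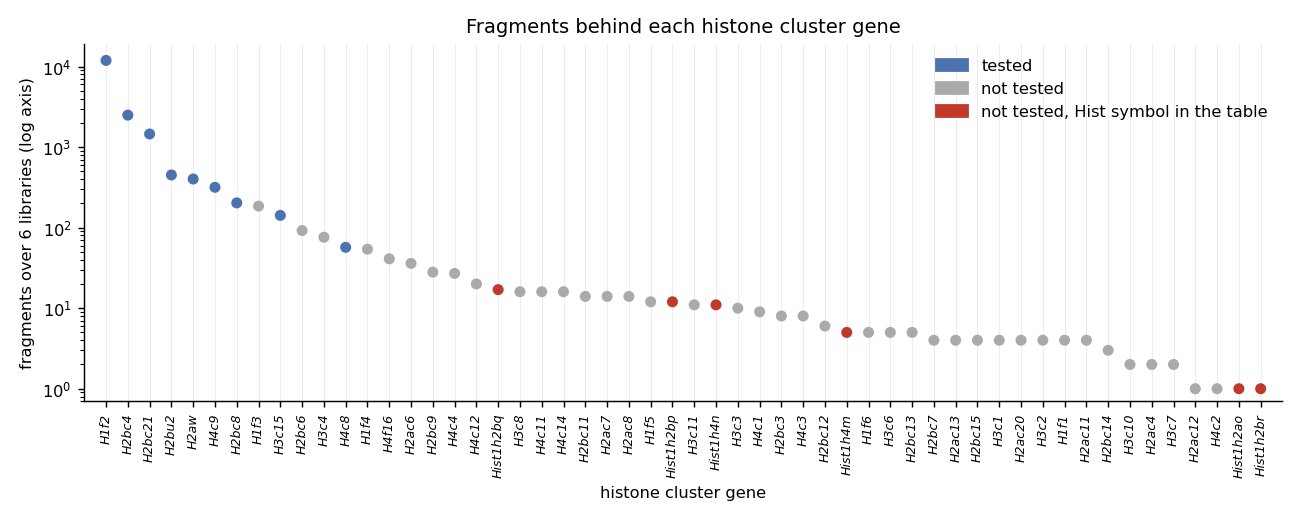
Fragments summed over the 6 libraries for each of the 54 histone cluster genes, on a log axis, ordered from high to low. H1f2 stands at 11939, 37 genes lie at or below 20, and the 6 genes with a Hist symbol in the deposited table (red) hold between 1 and 17.

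The transcript end is described as a property of the annotation, chosen after the levels were seen, with no test. The annotated transcript of H1f2 runs 840 bases past its stem-loop and has AATAAA, the usual polyadenylation signal, near its end, shown here in capitals within the last 30 bases.
H1f2: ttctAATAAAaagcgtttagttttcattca
Among the 7 members that passed the filter and had the pattern, the annotated end lay a median of 330 bases (46 to 1643) after the stem-loop. In the 32 members with the pattern that did not pass, the median was 65.5 bases (3 to 4884), so the ranges overlap. More than 100 bases followed the stem-loop in 6 of those 7 and in 15 of those 32. AATAAA within the last 40 bases was found in 4 of the 9 that passed (H1f2, H2bu2, H2bc21 and H2aw) and in 10 of the 45 that did not, against 73.5% of protein-coding genes. H2bc4 and H2bc21 had no match to the stem-loop pattern in their annotated transcripts, which says only that these letters are not there.

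**Figure D2:**
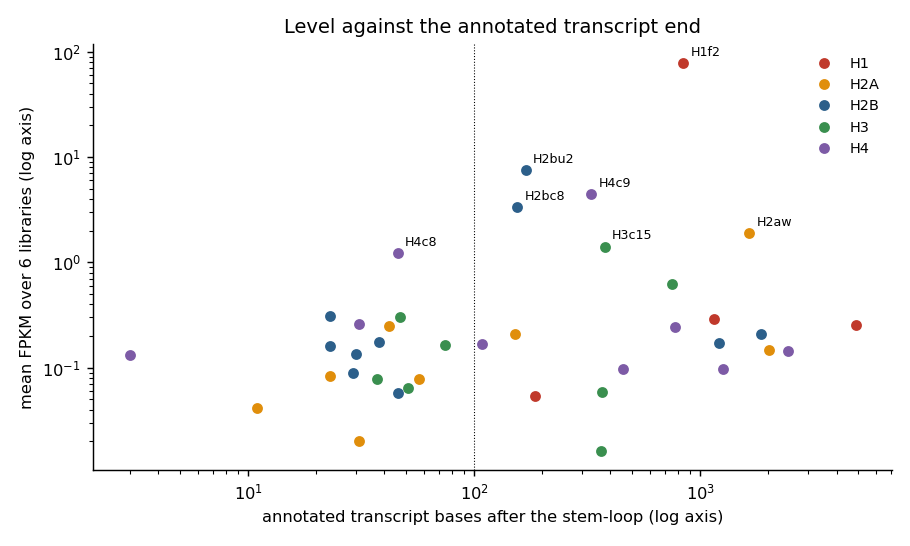
Mean FPKM over 6 libraries against the annotated transcript bases after the stem-loop, both on log axes, for the 39 members with the pattern, coloured by histone type. The dotted line marks 100 bases. H4c8 is the only labelled gene to its left, and the 21 members to its right have a median of 0.210 FPKM against 0.133 for the 18 at or below it.

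Among the H1 genes of the clusters the level came down to H1f2, which was lower in the libraries labelled knockout. H1f0, a linker histone gene outside the clusters, had a higher mean level (167.3 FPKM), and its groups overlapped. H1f2 (Hist1h1c, ENSMUSG00000036181) lies at chr13:23738808-23740367 on the plus strand in GRCm38, with an annotated exon length of 1560 bases. It measured 59.6, 69.1 and 68.7 FPKM in knockout 2, 4 and 5, and 88.6, 90.3 and 89.8 FPKM in wild type 3, 4 and 5. All 3 knockout libraries lay below all 3 wild-type libraries, and the wild type varied little, at 89.5 ± 0.873 FPKM against 65.8 ± 5.37 in the knockout (SD, n = 3 each). The values rest on 1549, 1825 and 1625 fragments against 2281, 2421 and 2238. Scaled to library totals, the knockout held 0.734 times the wild-type fragments, with an exact 95% interval of 0.708 to 0.761 that covers counting error only.

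On the log2(FPKM + 1) scale the H1f2 difference was -0.44 (SE 0.061, limma adjusted p = 0.0475). It was the only called member of the 9 tested, where 0.206% of all genes tested were called lower, and by p-value it ranked 45 of 14072. The call stood close to the threshold. H1f2 was lower under all 16 alternative settings, with log2 differences of -0.48 to -0.37, but was called in 6 and missed the threshold in the other 10, with adjusted p from 0.00857 (voom on fragments) to 0.164 (without wild type 4). It was lost without knockout 2 (0.0849), knockout 4 (0.136), wild type 3 (0.148), wild type 4 or wild type 5 (0.142), and kept without knockout 5 (0.0454). In bulk tissue, fewer cells that make a transcript and less of it per cell cannot be told apart. Of the 100-base windows of the H1f2 transcript, 5.07% occur in another gene, so shared reads touch little of it.

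**Figure D3:**
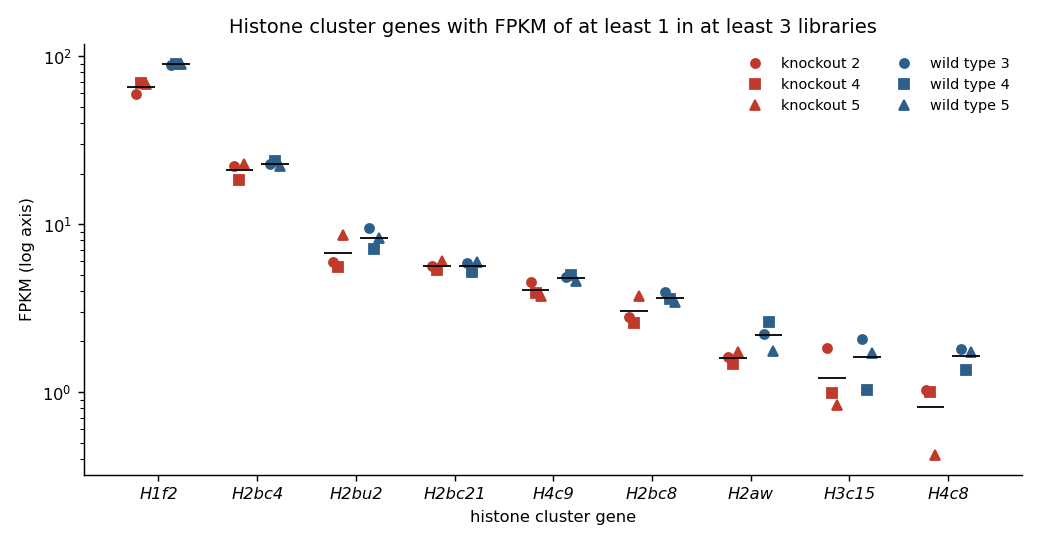
FPKM on a log axis of the 9 histone cluster genes that reached an FPKM of 1 in at least 3 libraries, with 1 marker per library (knockout red, wild type blue) and the group mean as a bar. For H1f2 the 3 knockout libraries sit between 59.6 and 69.1 and the 3 wild-type libraries between 88.6 and 90.3. H4c9, H2aw and H4c8 are the other genes whose groups do not overlap.

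The other 5 H1 genes of the clusters were barely detected. Together they summed to 0.842 ± 0.110 FPKM in the knockout and 0.781 ± 0.059 in the wild type (SD, n = 3). H1f2 thus made up 99.0% of the summed level of the cluster H1 genes. H1f4 (H1.4), the next in level, had 12, 4 and 11 fragments in the knockout and 7, 4 and 16 in the wild type, with overlapping groups. It overlaps H2bc6 on the same strand, so fragments in the shared stretch cannot be assigned to either with certainty. H1f3 (H1.3), named after its values were seen, had 23, 26 and 23 fragments against 54, 28 and 31, lower in each knockout library, at 0.199 and 0.307 FPKM. H1f1 (H1.1), also named afterwards, had 1, 2 and 1 fragments in the knockout and 0 in every wild-type library. H1f6, the testis-specific linker histone H1t, had 0 fragments in all knockout libraries and 0, 4 and 1 in the wild type.

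The region before the H1f2 start is printed because it is the called member. It is the RefSeq promoter window of 250 bases before to 50 after the start, chr13:23738557-23738856 on the plus strand (GRCm38.p6).
H1f2: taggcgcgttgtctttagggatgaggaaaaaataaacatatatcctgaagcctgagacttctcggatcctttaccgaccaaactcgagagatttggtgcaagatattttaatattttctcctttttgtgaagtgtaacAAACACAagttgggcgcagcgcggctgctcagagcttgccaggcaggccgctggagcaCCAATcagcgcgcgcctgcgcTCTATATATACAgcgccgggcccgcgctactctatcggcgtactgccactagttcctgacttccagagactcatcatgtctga
Capitals mark matches on either strand to 4 motifs. The TATA box was searched as TATANA, and its matches in this window overlap one another. The CCAAT box was searched by its name. The H1 box of linker histone promoters was searched as AAACACA. The octamer was searched as ATTTGCAT. RefSeq windows were matched for 49 of the 54 members. The CCAAT box was in 41 of the 49 (all H1, H2A, H2B and H3 windows matched, but 3 of 11 for H4), against 37.4% of the 32851 windows of the table, and the TATA box in 38 against 24.7%. The H1 box was in 5 of 6 H1 windows and in 2 of the other members, against 7.18%. The octamer was in 6 of 10 H2A and 4 of 14 H2B windows and in no other member, against 1.74%. A match is a description of the letters and not a bound site.

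H2B had the most expressed members, and limma called none of its 4 tested genes. H2bc4 measured 22.2, 18.4 and 22.6 FPKM in the knockout and 22.9, 23.6 and 22.1 in the wild type, with overlapping groups (log2 difference -0.12, SE 0.079, limma adjusted p = 0.478). H2bu2, an H2B gene of the Hist3 locus, measured 5.96, 5.58 and 8.59 against 9.47, 7.11 and 8.25 FPKM, and knockout 5 lay within the wild-type range (-0.28, SE 0.155, limma adjusted p = 0.392). H2bc21 of Hist2 was level, at 5.61, 5.30 and 6.04 FPKM against 5.90, 5.15 and 5.95 (-0.0023, SE 0.073, limma adjusted p = 0.991). H2bc8 measured 2.82, 2.58 and 3.73 against 3.92, 3.58 and 3.44 FPKM, again with knockout 5 inside the wild-type range (-0.21, SE 0.112, limma adjusted p = 0.375). H2bc8 shares 44.9% of its windows with other genes, mostly H2bc4, so the division of reads between these copies is uncertain. Over all 16 H2B genes the summed level was 38.4 ± 5.33 FPKM in the knockout and 41.8 ± 1.96 in the wild type, and the groups overlapped. The log2 ratio was -0.12, and it was -0.03 without knockout 4 and -0.23 without knockout 5, where the groups no longer overlapped.

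RNA of the cluster H2A genes was scarce, and its sum was lower in every knockout library. The 10 H2A genes summed to 2.10, 2.01 and 2.77 FPKM in the knockout and 3.67, 3.52 and 3.07 in the wild type (2.29 ± 0.413 against 3.42 ± 0.310, log2 ratio -0.58). H2aw of the Hist3 locus made up 66.4% of this sum. It measured 1.62, 1.46 and 1.72 FPKM against 2.23, 2.60 and 1.75, and the groups did not overlap, though knockout 5 and wild type 5 lay close together. Its log2 difference was -0.29 (SE 0.114, limma adjusted p = 0.258). H2aw overlaps Trim17, a ubiquitin ligase gene, on the same strand, and the 29.8% of its windows that are shared are shared with that gene. H2ac7, the next, had 0, 2 and 0 fragments against 4, 2 and 6, and H2ac20 of Hist2 had 0, 1 and 0 against 2, 0 and 1.

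Limma called neither the H3 gene nor the 2 H4 genes tested. H3c15 of Hist2 measured 1.82, 0.985 and 0.840 FPKM in the knockout and 2.08, 1.03 and 1.72 in the wild type, with overlapping groups (log2 difference -0.24, SE 0.210, limma adjusted p = 0.589), and 61.6% of its windows occur in another gene. H3c4 did not pass the filter, reaching an FPKM of 1 only in wild type 5 (1.002), and had 11, 7 and 6 fragments against 19, 13 and 20, lower in all 3 knockout libraries. The H3 sum was 4.25, 1.75 and 1.82 FPKM against 3.90, 2.81 and 3.67. Knockout 2 was the highest of all 6 libraries, so the log2 ratio of the means was -0.41 with it and -0.95 without it. It was -0.19 without knockout 4 and -0.20 without knockout 5.

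H4c9, the leading H4 gene, measured 4.54, 3.90 and 3.72 FPKM in the knockout and 4.83, 4.96 and 4.56 in the wild type. The groups did not overlap, but knockout 2 and wild type 5 were nearly equal (log2 difference -0.20, SE 0.077, limma adjusted p = 0.252). H4c8 stood just inside the filter, at 1.02, 1.01 and 0.421 FPKM against 1.80, 1.36 and 1.73, from 8, 8 and 3 fragments against 14, 11 and 13. All knockout libraries were lower (-0.55, SE 0.160, limma adjusted p = 0.163). On fragments the H4c8 ratio was 0.51 with a counting interval of 0.277 to 0.906, and the H4c9 ratio was 0.848 (0.675 to 1.06). Of the H4c8 windows, 38.5% occur in another gene, mostly H4c11. H4c12, the highest in mean level of the members that did not pass, had 10, 2 and 0 against 7, 0 and 1 fragments. H4c14 of Hist2 had 6, 5 and 0 against 2, 3 and 0, and H4f16, the Hist4 gene, 7, 5 and 7 against 4, 13 and 5. The 12 H4 genes summed to 7.06 ± 1.59 FPKM in the knockout and 8.26 ± 0.955 in the wild type, with overlapping groups. The log2 ratio of this sum was -0.23, and it moved to -0.39 without knockout 2, where the groups no longer overlapped, to -0.07 without knockout 5 and to -0.13 without wild type 3. Over the 2 tested H4 genes alone it was -0.40, without overlap.

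**Figure D4:**
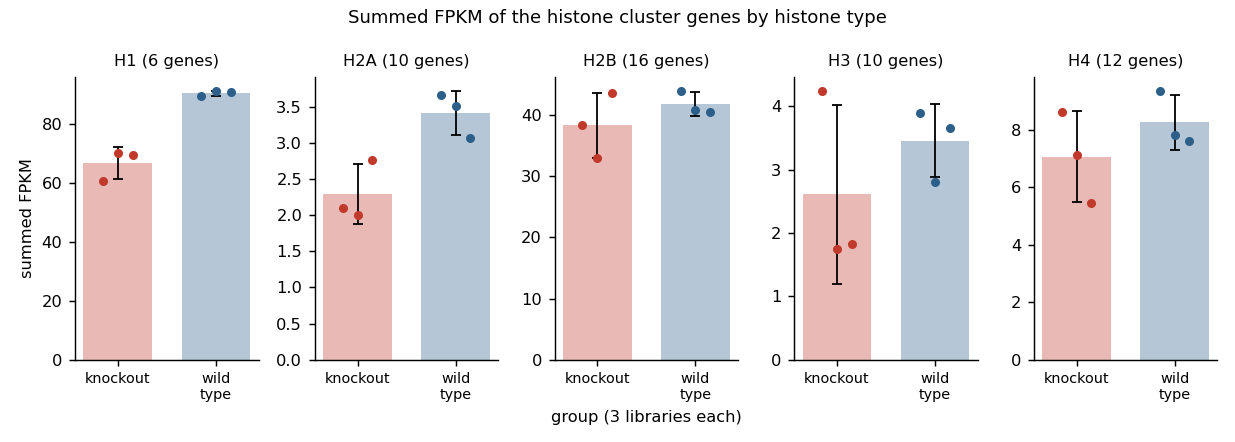
Summed FPKM of all histone cluster genes of each type in the knockout (red) and wild type (blue), with bars for the mean, error bars for the SD and a point for each of the 3 libraries, from an axis that starts at 0. The groups do not overlap for H1 (66.6 ± 5.41 against 90.3 ± 0.893) and H2A, and they overlap for H2B, H3 and H4.

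The 9 tested members had a negative log2 difference without exception, where 43.1% of all genes tested did. Their median was -0.24, against 0.022 over all genes tested, and -0.22 without H1f2. Among them H2bc21 was level, at -0.0023 (SE 0.073), and its sign turned under 5 of the 16 alternative settings. An unadjusted p under 0.05 with a lower level was found for 4 of the 9 (H1f2, H4c8, H4c9 and H2aw), against 6.99% of genes tested, and for the same 4 the groups did not overlap, against 9.54%. The count of 4 fell to 1 with voom on fragments. It fell to 2 with sex as a covariate and without knockout 4, wild type 3 or wild type 4. With a replicate block or without knockout 2 it was 3, and without knockout 5 it was 5. No tested member was higher without overlap, against 15.2% of genes tested. These members share copies and loci, so they are not independent measurements of the conditions, and a gene can pass the filter through its higher group, so the counts describe these 9 only. The uniform sign was not seen in the 45 members below the filter, of which 24 had a lower mean in the knockout and 21 a higher one (45.2% of all genes below the filter were lower). Among these 45, the groups did not overlap for 4 lower (H3c4, H1f3, H4c3 and H3c2, background 3.44%) and for 4 higher (Hist1h2bp, H2bc3, Hist1h2bq and H1f1, background 4.96%), and these were named after their values were seen. Hist1h2bq had 3 fragments in knockout 4, knockout 5 and wild type 4 alike, and H4c3 had 1 in knockout 2 and wild type 5 alike. In both genes the groups were apart only through the library totals.

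**Figure D5:**
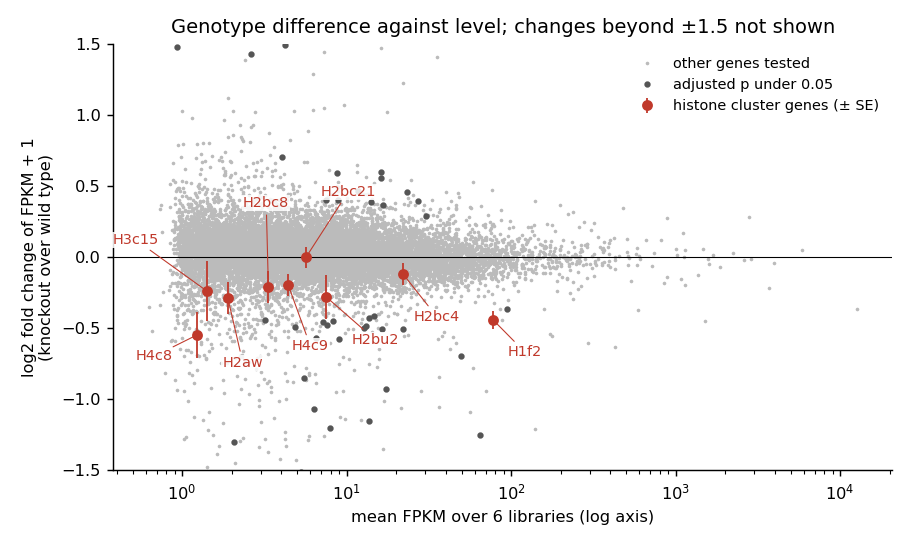
The log2 difference of FPKM + 1 (knockout over wild type) against the mean FPKM on a log axis for the 14072 genes tested, with called genes in dark grey and the 9 histone cluster genes in red with their SE. The red points lie between -0.55 and -0.0023, and H1f2 is the only called one among them.

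Summed over all 54 members, the level was 113.8, 114 and 123.1 FPKM in the knockout and 150.3, 146 and 145.5 in the wild type. H1f2 supplied most of this gap. Without it the sum was 54.2, 44.9 and 54.5 FPKM in the knockout and 61.7, 55.7 and 55.7 in the wild type, without overlap, though knockout 2 and 5 lay close to wild type 4 and 5.

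The 6 genes with a Hist symbol lay next to each other in Hist1, between chr13:21787461 and 21837530. Over all 6 genes the knockout libraries held 11, 10 and 11 fragments and the wild type 6, 8 and 1, so each knockout library held more than any wild-type library. None reached the filter, so none was tested. Hist1h2bp, an H2B gene, had 2, 5 and 4 fragments in the knockout and 1, 0 and 0 in the wild type (0.321 ± 0.132 against 0.0286 ± 0.0495 FPKM). The fragment ratio was 11.2 with a counting interval of 1.63 to 483, and with no filter limma gave a log2 difference of 0.36 (SE 0.084, adjusted p = 0.265). Hist1h4m, an H4 gene, had 0, 2 and 3 fragments against 0, 0 and 0, while Hist1h4n, its near copy, had 3, 0 and 1 against 3, 3 and 1. A count of 0 allows up to 3 fragments, which is worth 0.492 FPKM for Hist1h4m at the lowest depth, that of knockout 5. The libraries where Hist1h4m was at 0 were deeper, so the bound is lower there.

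Hist1h2bq had 6, 3 and 3 fragments against 2, 3 and 0 (0.122 ± 0.0497 against 0.0489 ± 0.0444 FPKM), and Hist1h2br, also H2B, had a single fragment, in wild type 4. Hist1h2ao, an H2A gene, likewise had 1 fragment, in wild type 4. Except for Hist1h2bp, these copies can hardly be told apart by reads. Of the 100-base windows of Hist1h2bq 94.8% occur in another gene, and of those of Hist1h2br 86.4%. The shares were 88.1% for Hist1h4m, 80.7% for Hist1h4n and 92.7% for Hist1h2ao, but 31.1% for Hist1h2bp. The RefSeq promoter windows of Hist1h2bq (chr13:21810150-21810449, minus strand) and Hist1h2br (chr13:21833493-21833792, plus strand) are identical over 300 bases, and the shared sequence is printed once with the same motifs in capitals.
Hist1h2bq and Hist1h2br: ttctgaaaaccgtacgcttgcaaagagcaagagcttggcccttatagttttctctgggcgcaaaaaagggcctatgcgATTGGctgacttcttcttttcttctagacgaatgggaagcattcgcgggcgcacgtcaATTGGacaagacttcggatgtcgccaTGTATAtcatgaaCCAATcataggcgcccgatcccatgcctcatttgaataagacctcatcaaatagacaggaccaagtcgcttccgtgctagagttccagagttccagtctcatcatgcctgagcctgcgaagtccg
The windows of Hist1h4m and Hist1h4n differ at 1 of 299 aligned bases.

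Histone genes outside the clusters, several of which encode replacement histones made outside DNA replication, ranged in mean from below 3 FPKM to above all cluster genes, and limma called 0 of them at an adjusted p under 0.05. Of the 11 tested, 8 had a negative log2 difference (43.1% of all genes tested did), the median was -0.02, and 1 was lower (background 6.99%) and 0 higher at an unadjusted p under 0.05 (background 10.6%). H3f3b, which encodes the replacement histone H3.3, measured 261.2 ± 13.7 FPKM in the knockout and 267 ± 23.6 in the wild type. H1f0, the linker histone of differentiated cells, measured 152.8, 168.7 and 177.3 against 155.6, 159 and 190.4 FPKM, overlapping throughout (log2 difference -0.015, SE 0.090, limma adjusted p = 0.948). The gene under that unadjusted p was H2ax, the variant phosphorylated at DNA breaks, at 20.3 ± 1.65 against 22.6 ± 0.357 FPKM (-0.15, SE 0.060, limma adjusted p = 0.260). It was named after its values were seen.

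The genes that process and chaperone histone products were also called in 0 cases by limma. Of 13 processing genes tested, 6 had negative and 7 positive log2 differences, with a median of 0.003, and 1 was higher and 0 lower at an unadjusted p under 0.05 (10.6% and 6.99% of all genes tested). The highest in level were Srrt, which couples the cap-binding complex to RNA processing, at 35.8 ± 1.05 against 37.7 ± 0.804 FPKM, and Upf1, a helicase of RNA decay, at 28.4 ± 0.791 against 29.5 ± 1.44. Slbp, the stem-loop binding protein itself, named after its values were seen, was at 4.97 ± 0.457 against 5.57 ± 0.212 FPKM (-0.14, SE 0.072, limma adjusted p = 0.351). Slbp and Srrt were lower in each knockout library than in any wild-type library (background 9.54% of genes tested). Cpsf2, Casp8ap2 and Cstf2, also named afterwards, were higher in each knockout library than in any wild-type library (background 15.2%). Cstf2 was the gene that was higher at an unadjusted p under 0.05. Of 19 chaperones tested, 15 had negative differences (43.1% of all genes tested did) with a median of -0.03, and 1 was higher and 1 lower at an unadjusted p under 0.05, against the same 10.6% and 6.99%. Rbbp7, a histone-binding subunit of several complexes, measured 68.1 ± 3.70 against 69.7 ± 2.63 FPKM, and Nap1l4, a nucleosome assembly protein, 47.7 ± 2.31 against 48.2 ± 2.22.

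Genes of DNA replication, the phase in which cluster histones are made, had 0 limma calls. Of 26 S phase genes tested, 19 had negative log2 differences (43.1% of all genes tested did) with a median of -0.07, and 4 were lower at an unadjusted p under 0.05 against a background of 6.99%. These were Mcm2, Mcm3, Mcm5 and Mcm6, subunits of the replicative helicase, named after their values were seen. The highest in level were Pcna, the sliding clamp, at 38.8 ± 1.46 FPKM in the knockout and 41.3 ± 1.66 in the wild type (-0.09, SE 0.047, limma adjusted p = 0.391), and Mcm7, another helicase subunit, at 19.0 ± 0.603 against 20.4 ± 0.994 (-0.09, SE 0.050, limma adjusted p = 0.376). The 8 mitosis genes were split evenly, 4 negative and 4 positive, with 0 at an unadjusted p under 0.05. Among them Plk1, a mitotic kinase, measured 11.6 ± 0.604 against 12.9 ± 0.925 FPKM and Aurkb, a kinase of chromosome segregation, 9.06 ± 0.697 against 9.67 ± 0.478. Summed over the list, S phase genes measured 218.1 to 230.3 FPKM in the knockout and 230.3 to 248.5 in the wild type.

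Marker lists of the cochlea and of tissues that a dissected cochlea can carry held 0 called genes, and their part in the H1f2 difference was not tested. Cochlear identity genes were present: 8 of 11 tested had an unadjusted p under 0.05 and a higher level (background 10.6%), 0 were called, and Tectb and Gjb2 were the highest at 110.6 ± 9.39 against 95.2 ± 1.22 and 72.5 ± 4.61 against 61.9 ± 2.65 FPKM. The 8 middle ear epithelium markers summed to 13.1, 23.9 and 104.3 FPKM in the knockout and 396.5, 749.5 and 411.1 in the wild type. Their leading gene, the secreted Bpifa1, was at 0.0777, 8.34 and 93.3 against 336.3, 608.5 and 402.2 FPKM. Bpifb1 was at 0.233 ± 0.00412 against 37.4 ± 43.3, with overlapping groups (27.25, 84.88 and 0.1903 FPKM in wild type 3, 4 and 5). Muc16 and Scgb3a2 were at 0 in knockout 2. Of the 3 tested, 2 were lower at an unadjusted p under 0.05 (background 6.99%). The third, Ltf, is also in the marrow list, and its groups overlapped.

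The neutrophil and marrow markers summed to 89.3 to 154.1 FPKM in the knockout and 33.1 to 93.7 in the wild type, and 5 of 6 tested were higher at an unadjusted p under 0.05 (background 10.6%), with S100a9 at 51.2 ± 14.9 against 19.3 ± 8.40 and Ngp at 31.1 ± 6.68 against 13.2 ± 5.83. Erythroid markers summed to 293 to 452.2 against 398.6 to 555.1 FPKM, where Hba-a1 was at 143.7 ± 35.8 against 210 ± 35.6 and Hbb-bs at 141.7 ± 36.9 against 204.7 ± 33.6, and 2 of 6 tested were lower (background 6.99%) and 1 higher by unadjusted p. Skeletal muscle markers summed to 217.5, 31.5 and 241.9 against 260.4, 136.7 and 591.7 FPKM, with overlapping groups, 0 of 8 under 0.05, Acta1 at 95.9 ± 70.0 against 183.3 ± 124.6, Mylpf at 24.3 ± 17.0 against 48.8 ± 39.8, and Myod1 at 0 in knockout 4. B cell precursor markers summed to 17.9 to 19.8 against 16.3 to 18.8 FPKM, with 0 of 4 tested under 0.05, Ebf1 at 11.4 ± 0.475 against 11.4 ± 0.351 and Cd79a at 2.46 ± 0.621 against 2.20 ± 0.420. Male germ cell markers, which bear on the testis histone H1f6, had rows for 4 of 6 and summed to 0.733 to 1.47 FPKM in the knockout and 0.725 to 1.496 in the wild type, with Sycp3 at 0.6 ± 0.148 against 0.482 ± 0.226 and Prm1 at 0.286 ± 0.117 against 0.144 ± 0.125. Limma called 0 genes in each of these lists at an adjusted p under 0.05.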

How the data were processed

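RNA of the cochlea at postnatal day 7 was sequenced in 6 libraries, made with the VAHTS Universal V6 kit per the labels' protocols. The authors deposited FPKM values for each gene and library in a table that also holds symbol, biotype and position. Per the submitters' processing notes the build is GRCm38. The aligner, counter and counting strand were not given in the sources used here. The members, gene lists, tests and the rule for named genes were chosen with earlier results of these data known.

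FPKM times the GENCODE M21 exon length gave whole fragments (within 0.01 plus a relative 1e-06) for 98.3% to 98.35% of values above 0 and for all 54 members, and so the library totals of 15170973 to 17192293. The test was limma 3.58.1 on log2(FPKM + 1) over the 14072 genes that reached FPKM 1 in 3 or more libraries (R 4.3.3, lmFit, eBayes with a trend, two-sided, Benjamini-Hochberg, threshold 0.05), and it was tested on simulated data. Changes of low genes are understated on this scale. Intervals (95%, exact binomial) and the floor of 3 fragments cover counting error only. Sums, shares and sequence searches used Python 3.11.15 with numpy 2.4.6, pandas 2.3.3, scipy 1.17.1 and matplotlib 3.10.9.

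Named with values were the 2 members of each type with the highest mean, members called or under an unadjusted p of 0.05, those outside Hist1, the testis member, the 6 with a Hist symbol, 2 genes of each of 12 lists and Neu4. The lists hold 143 genes, of which 7 matched through an older symbol and 2 had no match. Alternatives were other pseudocounts, filters and scaling, no trend, protein-coding genes only, a replicate block, sex as a covariate, voom (limma) on the recovered fragments and leaving out each library. Added after the values were seen were the members with a Hist symbol alone and the median without H1f2.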

Additional observations from a re-analysis of the deposited data

How the results depend on the processing

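The count of called histone members was 1, and it was 0 with a pseudocount of 0.1, with no filter, with no trend, with sex as a covariate and with a replicate block, and 0 among the 6 members with a Hist symbol, of which none was tested. At an unadjusted p under 0.05, in either direction, limma found 4, 10, 4, 2 and 3 members under those 5 settings. Over all genes it found 2469, 3269, 2418, 2484 and 1744, of 30462 with no filter and of 14072 in the others. The 10 with no filter were of all 54 members and included genes higher in the knockout (Hist1h2bp, H2bc3 and H1f1). The other 4 counts were of the 9 tested. With voom limma found 1 member, and with each library left out 2 to 5. Leaving out each library gave 0 to 1 called. The count over all genes was 47, and it became 19 with no filter, 103 at an FPKM of at least 5, 19 with no trend, 22 with a replicate block, 24 with sex as a covariate, 389 with voom on recovered fragments, and 10 (without knockout 2) to 98 (without knockout 5) with each library left out. The count over the lists was 0, and it became 4 with a replicate block, 7 with voom and 0 to 1 with each library left out. The cause of these shifts was not tested. The median log2 difference of the tested members stayed between -0.326 and -0.175 under the 16 other settings. With each library left out, the log2 ratio of the H3 sum (-0.41) ran from -0.95 to -0.19, that of the H4 sum (-0.23) from -0.39 to -0.07 and that of the H2B sum (-0.12) from -0.23 to -0.03. H2bc21, at -0.0023, turned to 0.027 with a replicate block, and ran from -0.059 to 0.036 with each library left out, above 0 without knockout 2 (0.00102), knockout 4 (0.036), wild type 3 (0.0234) or wild type 5 (0.0287). The numbers 4 and 5 occur in both groups, and deviations of same-numbered libraries correlated at 0.141 and 0.15. Knockout 2 and wild type 3 correlated at 0.11, and the other combinations at -0.125 to -0.0104. By the labels the 2 same-numbered pairs share only a number. With the replicate block, knockout 2 and wild type 3 have no partner, so the genotype difference rests on the libraries numbered 4 and 5. There H1f2 had a log2 difference of -0.38 and a limma adjusted p of 0.136. Depth limits the 45 members below the filter, of which 37 rest on at most 20 fragments. Fragments of near-identical copies cannot be assigned with certainty.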
